A study of Mus musculus with 2 samples.

Results

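In liver tumor RNA of *Fabp4*-/- and WT mice, 9 neutrophil genes were compared. *S100a8*, *S100a9* and *Retnlg* were higher in *Fabp4*-/-, and *Camp*, *Ngp* and *Ltf* were lower. The genes were chosen by name: *S100a8*, *S100a9*, *Csf3r* and *Retnlg* as genes of the mature cell, and *Mpo*, *Elane*, *Camp*, *Ngp* and *Ltf* as genes that precursors transcribe while they fill their granules. All 9 were found among the 48526 gene identifiers of the deposited table. Male C57BL/6N mice, either with a whole-body *Fabp4* knockout or WT, had received the liver carcinogen DEN by intraperitoneal injection at 14 days of age (25 mg/kg) and a HFD for 29 weeks starting when they were 6 weeks old. Tumor nodules were then taken for RNA-seq, with 1 library for *Fabp4*-/- and 1 for WT. The sources used here do not give how many mice or nodules a library holds.

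Neutrophils are short-lived white blood cells that are made in the bone marrow and reach the liver through the blood. During their development granule proteins are transcribed in waves: promyelocytes make the proteases and peroxidase of primary granules, and myelocytes and metamyelocytes then make the antimicrobial proteins of secondary granules. In the mature cell most of this transcription has ceased, whereas the calcium-binding proteins of the cytosol and the receptors for growth factors and chemokines are still transcribed.

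The depth was 59600850 estimated read pairs in the *Fabp4*-/- library and 56353665 in the WT library. The targeted gene *Fabp4*, whose product carries fatty acids in adipocytes and in macrophages, was at 0.03 TPM in *Fabp4*-/- and 44.1 TPM in WT. TPM is a level corrected for transcript length and for the library total. The log2 ratio of TPM, *Fabp4*-/- over WT after adding 0.5 to both, had a median of −0.46 over the 13557 genes that reached 1 TPM in 1 library or both, which are the genes tested, and the log2 ratio of the authors' normalised counts, after adding 1, had a median of 0.04. A ratio of a single gene is therefore read against the median of the measure it comes from. As either genotype had 1 library, no difference has a replicate check and no p-value was computed. Intervals given here are exact 95% binomial intervals of the ratio of normalised counts, and they cover counting error only.

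Together the 9 genes held 1610 read pairs in *Fabp4*-/- and 1389 in WT, and their TPM values summed to 60.4 and 49.3. Of the 9 genes, 7 reached 1 TPM, and *Mpo* and *Elane* did not. By TPM, 1 of the 9 was at least 2-fold higher in *Fabp4*-/- (*Retnlg*) and 3 were at least 2-fold lower (*Camp*, *Ngp* and *Ltf*), where 2.18% and 14.2% of all genes tested were. By normalised counts, 2 were at least 2-fold higher (*S100a9* and *Retnlg*) and the same 3 were at least 2-fold lower, against 5.63% and 7.34% of all genes tested. In bulk tumor RNA, fewer cells of a type and less RNA per cell cannot be told apart.

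Not every defining neutrophil marker was found. *Ly6g*, the surface protein by which mouse neutrophils are usually stained, was at 0.02 TPM in *Fabp4*-/- and 0.14 TPM in WT, from 1 and 2 read pairs. The chemokine receptor gene *Cxcr1* had 1 read pair in either library, and *Cxcr2*, the main chemokine receptor of the mature cell, had 120 in *Fabp4*-/- and 74 in WT. The name of the cell type is therefore used here for the known origin of the genes, not for cells counted in the tumors. *S100a8*, *S100a9* and *Csf3r* are also transcribed by monocytes.

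**Figure D1:**
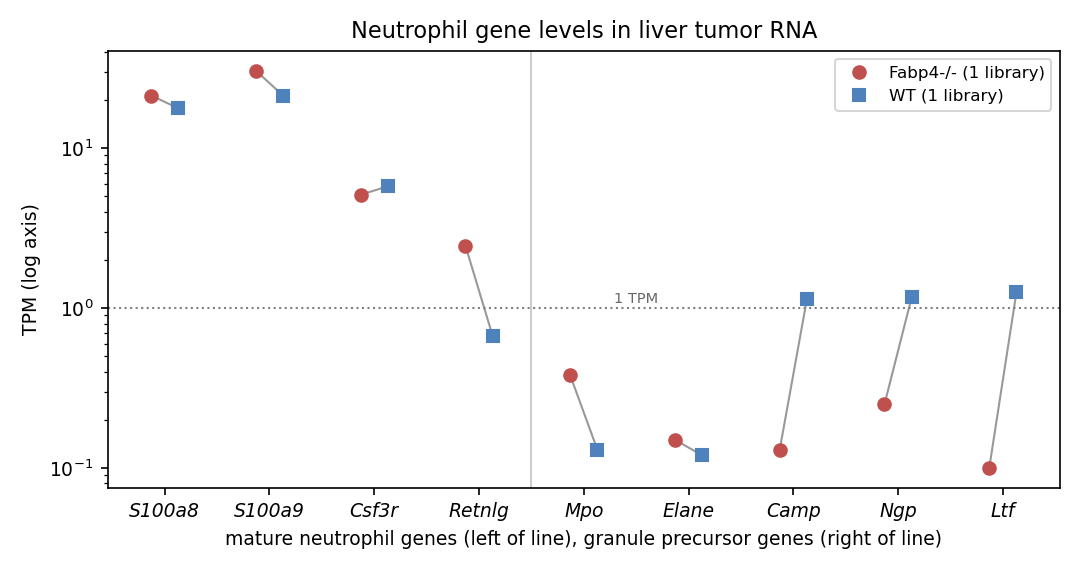
TPM of each of the 9 genes on a log axis, with *Fabp4*-/- as circles and WT as squares (1 library each). The circles of *S100a8*, *S100a9* and *Retnlg* lie above the squares, and those of *Camp*, *Ngp* and *Ltf* lie below them, at 0.10 to 0.25 TPM against 1.14 to 1.26 TPM.

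*S100a8* and *S100a9* encode the subunits of calprotectin, the abundant cytosolic calcium-binding and zinc-binding complex of neutrophils, and lie side by side on chromosome 3 of mm10. *S100a8* (ENSMUSG00000056054.9, from 90668978 to 90670035) was at 21.3 TPM in *Fabp4*-/- and 17.8 TPM in WT, from 338 and 244 read pairs. Its log2 ratio was 0.26 by TPM and 0.83 by normalised counts, which is 0.72 and 0.79 above the median of all genes tested. *S100a9* (ENSMUSG00000056071.12, from 90692632 to 90695721) was at 30.5 TPM in *Fabp4*-/- and 21.3 TPM in WT, from 527 and 318 read pairs. Its log2 ratio was 0.51 by TPM and 1.09 by normalised counts, 0.97 and 1.05 above the median. Both subunits were thus higher in *Fabp4*-/- by either measure, *S100a8* by 1.78-fold in normalised counts (interval 1.51 to 2.11) and *S100a9* by 2.13-fold (1.85 to 2.46). Between the subunits the balance was similar, with 0.641 read pairs of *S100a8* per read pair of *S100a9* in *Fabp4*-/- and 0.767 in WT, a ratio of ratios of 0.836 (interval 0.670 to 1.04) that does not depend on scaling.

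*Csf3r* (ENSMUSG00000028859.14, chromosome 4 from 126024550 to 126044440) encodes the receptor for G-CSF, the growth factor of the neutrophil lineage. It was at 5.11 TPM in *Fabp4*-/- and 5.77 TPM in WT, from 638 and 652 read pairs. Its log2 ratio was −0.16 by TPM and 0.33 by normalised counts, so its direction turns with the measure, while it lay 0.30 and 0.29 above the median of all genes tested. *Csf3r* was the least different of the 4 mature genes. The gene of its ligand, *Csf3*, was listed at 0 in both libraries, which allows up to 3 read pairs in either.

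*Retnlg* (ENSMUSG00000022651.5, chromosome 16 from 48872608 to 48874498) encodes a resistin-like protein of rodent neutrophils. It was at 2.46 TPM in *Fabp4*-/- and 0.67 TPM in WT, from 55 and 13 read pairs. This was the largest difference of the 4 mature genes, with a log2 TPM ratio of 1.34 and 2.35 by normalised counts, and it was 5.44-fold higher in normalised counts (interval 2.94 to 10.9). Relative to the summed reads of *S100a8* and *S100a9* in the same library, *Retnlg* was 2.75-fold higher in *Fabp4*-/- (interval 1.46 to 5.53). The 4 mature genes had a median log2 TPM ratio of 0.38 (0.96 by normalised counts), and all 4 lay above the median of all genes tested by both measures.

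*Mpo* and *Elane*, genes of the primary granule, were close to the limit of detection in both tumors. *Mpo* (ENSMUSG00000009350.13, chromosome 11 from 87793581 to 87804413), the peroxidase that makes hypochlorous acid, was at 0.38 TPM in *Fabp4*-/- and 0.13 TPM in WT. These values rest on 17 and 13 read pairs, a 1.68-fold difference with an interval from 0.770 to 3.77 that holds 1. *Elane* (ENSMUSG00000020125.6, chromosome 10 from 79886312 to 79888216), neutrophil elastase, was at 0.15 TPM in *Fabp4*-/- and 0.12 TPM in WT, from 6 and 4 read pairs. Its ratio of 1.93 had an interval from 0.458 to 9.30. At this depth no difference of either gene was detectable.

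*Camp*, *Ngp* and *Ltf*, genes of the secondary granule, were each lower in *Fabp4*-/-. *Camp* (ENSMUSG00000038357.10, chromosome 9 from 109847379 to 109849617), which encodes the cathelicidin antimicrobial peptide, was at 0.13 TPM in *Fabp4*-/- and 1.14 TPM in WT. Its read pairs were 4 and 30, and its normalised counts were 5.83-fold lower in *Fabp4*-/- (interval 2.05 to 22.8). *Ngp* (ENSMUSG00000032484.8, chromosome 9 from 110419747 to 110423012) encodes neutrophilic granule protein, which is related to the cathelicidins. It was at 0.25 TPM in *Fabp4*-/- and 1.17 TPM in WT, from 14 and 56 read pairs, and was 3.11-fold lower in normalised counts (interval 1.71 to 6.05). The 3 intervals overlap, including that of *Ltf* (ENSMUSG00000032496.7, chromosome 9 from 111019271 to 111042767), the gene of the iron-binding protein lactoferrin. *Ltf* was at 0.10 TPM in *Fabp4*-/- and 1.26 TPM in WT, from 11 and 59 read pairs, and was 4.17-fold lower in normalised counts (interval 2.17 to 8.80). All 3 genes passed the minimum of 1 TPM only through the WT library, as *Retnlg* did only through *Fabp4*-/-. A gene that passes in this way had to differ, so the counts of genes past 2-fold are a description.

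The log2 TPM ratios were −1.38 for *Camp*, −1.15 for *Ngp* and −1.55 for *Ltf*, and by normalised counts −2.31, −1.58 and −1.98. TPM and reads told unlike sizes for *Ltf* and *Mpo*. *Ltf* had 110.0 read pairs per TPM in *Fabp4*-/- and 46.8 in WT, and *Mpo* had 44.7 and 100, whereas for *Ngp* the values were 56.0 and 47.9 and for *S100a8* 15.9 and 13.7. GENCODE M21 lists 12 transcripts of 233 to 2743 bases for *Ltf* and 6 of 542 to 2750 bases for *Mpo*, but 1 transcript each for *Camp*, *Ngp*, *Elane* and *Retnlg*. In the number of annotated transcripts RSEM could divide reads over, *Ltf* thus stood first, and the part of this in the TPM ratios was not tested. The ratio in normalised counts does not use transcript length.

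**Figure D2:**
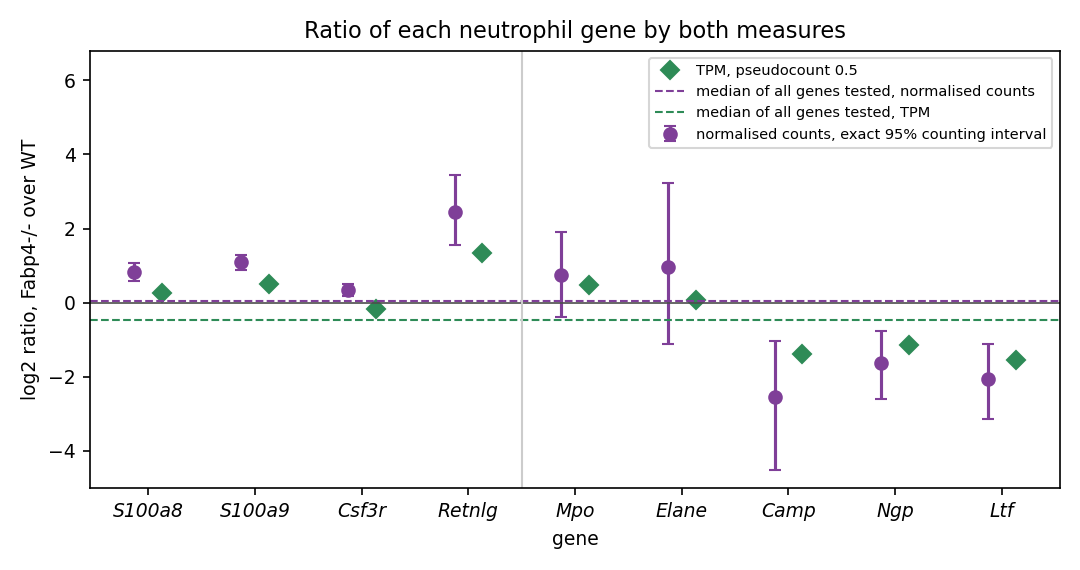
Log2 ratio of *Fabp4*-/- over WT for each gene, by normalised counts (circles, with the exact 95% counting interval) and by TPM with a pseudocount of 0.5 (diamonds). Dashed lines are the medians of all genes tested, 0.04 and −0.46. The intervals of *Camp*, *Ngp* and *Ltf* lie below both lines and those of the 4 mature genes lie above both, while that of *Elane* crosses both and that of *Mpo* crosses the line at 0.04.

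Set within each library, the mature and the granule genes can be compared without any scaling. The 4 mature genes had 1558 read pairs in *Fabp4*-/- and 1227 in WT, and the 5 granule genes had 52 and 162. This is 30.0 read pairs of mature genes per read pair of granule genes in *Fabp4*-/- and 7.57 in WT, a ratio of ratios of 3.95 (interval 2.85 to 5.56). The ratios that follow leave out *Mpo* and *Elane*, whose reads were not lower in *Fabp4*-/-, a choice made after their values were seen. These ratios are descriptions, and their intervals do not allow for that choice. *S100a8* and *S100a9* together had 865 read pairs in *Fabp4*-/- and 562 in WT, and *Camp*, *Ngp* and *Ltf* together had 29 and 145. There were 29.8 read pairs of the calprotectin genes per read pair of these 3 genes in *Fabp4*-/-, and 3.88 in WT, a ratio of ratios of 7.69 (interval 5.05 to 12.1). With *Csf3r* in place of the calprotectin genes, the values were 22.0 in *Fabp4*-/- and 4.5 in WT, a ratio of ratios of 4.89 (3.21 to 7.67). *Mpo* and *Elane*, though also granule genes, had summed reads of 23 in *Fabp4*-/- and 17 in WT. No contrast of them with the 3 lower genes is drawn, as their own direction set the division. The proportions among the 3 secondary granule genes were measured too coarsely to show a difference or likeness, with 1.27 read pairs of *Ngp* per read pair of *Ltf* in *Fabp4*-/- and 0.949 in WT (ratio of ratios 1.34, interval 0.515 to 3.56). *Camp* had 0.286 read pairs per read pair of *Ngp* in *Fabp4*-/- and 0.536 in WT (ratio of ratios 0.536, interval 0.118 to 1.91).

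**Figure D3:**
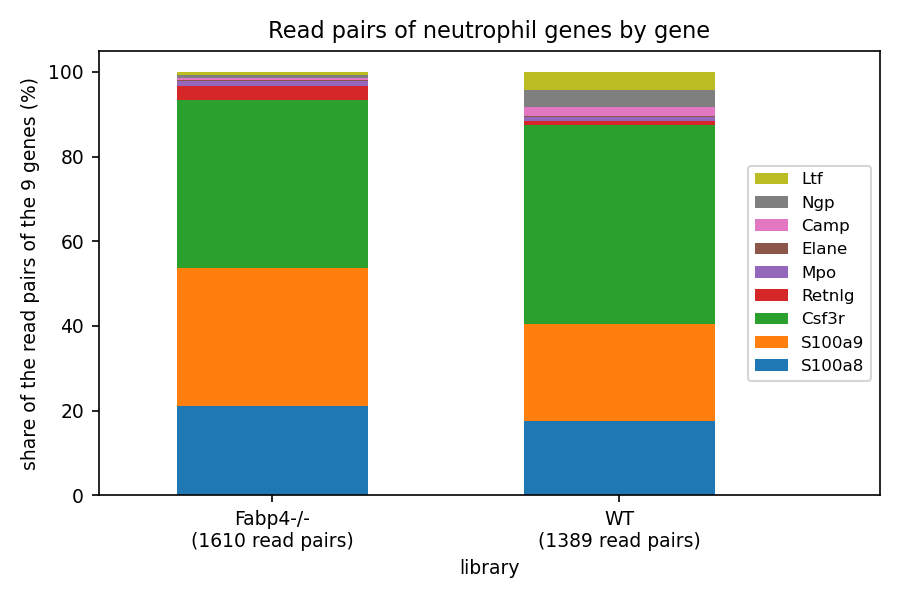
Share of the read pairs of the 9 genes that each gene took, in percent, in *Fabp4*-/- (left, 1610 read pairs) and WT (right, 1389 read pairs). The 5 granule genes together took 3.23% in *Fabp4*-/- and 11.7% in WT, and the 4 mature genes took the rest. Bars start at 0 and shares are of reads, so longer transcripts weigh more.

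The 3 lower genes also share a position, which was not used to choose them. They lie within 1195389 bases of chromosome 9, from 109847379 to 111042767. Between them 16 other protein-coding genes were tested. Their median log2 TPM ratio was −0.57 (−0.14 by normalised counts), against −0.46 and 0.04 for all genes tested. By TPM 4 of the 16 were past 2-fold, all in the lower direction, where 14.2% of all genes tested were lower. By normalised counts 1 was higher and 1 lower, against 5.63% and 7.34% of all genes tested. The lowest of the neighbours by TPM was the cell cycle phosphatase gene *Cdc25a*, chosen after its values were seen, with a log2 ratio of −1.25. No other tested protein-coding gene lies between *S100a8* and *S100a9*.

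The stretches before the start sites of *Camp*, *Ngp* and *Ltf*, and those of *S100a8*, *S100a9* and *Retnlg*, are printed because these genes stood on opposite sides of the median. C/EBP factors, which bind sites of the form TTGCNNAA, are known activators of granule genes, and *Cebpe* is required for secondary granules. The sequences are from RefSeq on GRCm38.p6, the assembly also called mm10, and all 9 genes matched. Each begins 250 bases before the RefSeq start site and is given 5′ to 3′ on the strand of the gene up to the base before the gene start in RefSeq or in the deposited table, whichever comes first. Capitals mark TTGCNNAA on either strand.
Camp, chr9:109849618-109849706, minus strand: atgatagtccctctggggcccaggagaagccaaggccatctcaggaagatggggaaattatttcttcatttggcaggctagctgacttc
Ngp, chr9:110419558-110419746, plus strand: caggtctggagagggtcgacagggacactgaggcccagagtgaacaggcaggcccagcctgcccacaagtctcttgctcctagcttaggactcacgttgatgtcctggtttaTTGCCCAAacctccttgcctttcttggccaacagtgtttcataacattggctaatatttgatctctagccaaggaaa
Ltf, chr9:111019042-111019270, plus strand: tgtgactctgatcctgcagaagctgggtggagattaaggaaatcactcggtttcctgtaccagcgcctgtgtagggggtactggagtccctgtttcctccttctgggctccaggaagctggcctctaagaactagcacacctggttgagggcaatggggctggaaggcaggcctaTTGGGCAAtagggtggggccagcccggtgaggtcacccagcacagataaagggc
S100a8, chr3:90668821-90668977, plus strand: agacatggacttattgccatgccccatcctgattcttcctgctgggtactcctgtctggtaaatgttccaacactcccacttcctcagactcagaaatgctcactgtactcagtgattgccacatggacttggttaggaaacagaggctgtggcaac
S100a9, chr3:90695722-90695971, minus strand: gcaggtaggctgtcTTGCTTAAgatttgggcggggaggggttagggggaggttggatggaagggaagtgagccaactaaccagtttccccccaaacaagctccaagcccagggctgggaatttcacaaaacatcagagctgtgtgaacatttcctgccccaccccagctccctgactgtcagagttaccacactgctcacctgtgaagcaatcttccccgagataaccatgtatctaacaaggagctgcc
Retnlg, chr16:48872358-48872607, plus strand: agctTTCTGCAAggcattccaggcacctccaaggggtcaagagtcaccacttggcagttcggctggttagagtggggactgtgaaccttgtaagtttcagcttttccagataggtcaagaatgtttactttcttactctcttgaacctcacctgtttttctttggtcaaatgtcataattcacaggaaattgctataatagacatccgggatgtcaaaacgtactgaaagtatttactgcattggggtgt

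In the 250 bases before the RefSeq start, TTGCNNAA on either strand was found in *Ngp* (2 matches), *Ltf*, *S100a9* and *Retnlg*, and not in *Camp*, *S100a8*, *Csf3r*, *Mpo* or *Elane*. One match of *Ngp*, TTGGGCAA, begins 11 bases before the RefSeq start and after the deposited start, and is not in the stretch printed. The motif was in 9.56% of the 32851 windows of this length in the RefSeq table. It was found in 2 of 4 mature and 2 of 5 granule genes, and so did not separate them. The core GAGGAA of PU.1, the myeloid ETS factor, searched on either strand, was in *S100a8*, *Csf3r*, *Mpo*, *Elane* and *Ltf* and in 23.3% of all windows. The 2 motifs do not overlap in these windows. A match of letters is a description and not a binding site.

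Other granule genes did not all go with *Camp*, *Ngp* and *Ltf*. For the counts that follow, 14.2% of all genes tested were past 2-fold downwards by TPM and 7.34% by normalised counts. Upwards the shares were 2.18% and 5.63%. Of 8 further genes of the primary granule and the promyelocyte, 3 reached 1 TPM, and 1 was past 2-fold, lower on both scales. This gene was *Prtn3*, the proteinase 3 gene next to *Elane* on chromosome 10, at 2.05 TPM in *Fabp4*-/- and 7.31 TPM in WT, from 66 and 203 read pairs (log2 TPM ratio −1.61). *Prtn3* was thus well above *Elane* in TPM in both tumors. Also at 1 TPM or more, but not past 2-fold, were *Gstm1* (1094 TPM in *Fabp4*-/- and 2134 TPM in WT) and *Cd63* (285 and 305 TPM). *Ctsg*, the cathepsin G gene, was under 1 TPM in both libraries and had 3 read pairs in *Fabp4*-/- and 15 in WT. Its normalised counts were 3.89-fold lower in *Fabp4*-/- (interval 1.10 to 20.9). Of 15 further genes of the secondary and tertiary granule, 8 reached 1 TPM, and those past 2-fold were 2 lower ones on the TPM scale (*Lcn2* and *Cybb*) but 2 higher ones in normalised counts (*Wfdc21* and *Pglyrp1*). Over the 8, the median log2 TPM ratio was −0.41, against −0.46 for all genes tested. Of the genes of this list under 1 TPM, *Mmp8* had 24 read pairs in *Fabp4*-/- and 10 in WT, and *Mmp9* had 72 and 61. Their normalised counts were higher in *Fabp4*-/-, 3.09-fold (interval 1.42 to 7.24) and 1.52-fold (1.06 to 2.17). The intervals of the others under 1 TPM held 1. *Lcn2*, a siderophore-binding protein that hepatocytes also make, was at 1042 TPM in *Fabp4*-/- and 2893 TPM in WT. *Cybb*, the oxidase subunit of phagocytes, was at 3.93 and 9.27 TPM. *Pglyrp1*, a peptidoglycan recognition protein of the granules, was at 23.8 TPM in *Fabp4*-/- and 13.1 TPM in WT, and *Wfdc21* at 84.1 and 45.4 TPM.

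Among genes that reached 1 TPM, the wider list of mature neutrophil genes had a median below that of all genes tested, unlike the 4. Of its 31 genes, 18 reached 1 TPM, and on the TPM scale 1 was past 2-fold upwards and 6 downwards, in normalised counts 1 and 2. Past 2-fold downwards were thus 33.3% of the 18 on the TPM scale and 11.1% in normalised counts, against 14.2% and 7.34% of all genes tested. The median of the 18 was −0.64 for TPM and −0.30 for normalised counts, against −0.46 and 0.04 for all genes tested. Over all 31 genes, those under 1 TPM included, the medians were −0.42 and 0.03. By TPM, the side of the median of all genes tested on which this list lay thus turned with the minimum. By TPM 17 of the 31 lay above the median of all genes tested and 14 below it. The gene past 2-fold upwards was *Alox5*, the lipoxygenase that starts leukotriene synthesis. It was at 14.0 TPM in *Fabp4*-/- and 2.13 TPM in WT, from 1129 and 199 read pairs. *Fcgr4*, an Fc receptor that macrophages share, was at 5.92 TPM in *Fabp4*-/- and 22.9 TPM in WT. *Fpr2*, a formyl peptide receptor, was at 0.94 and 3.85 TPM, and the leukocyte integrin gene *Itgb2* at 5.61 and 14.3 TPM. *Cxcr2* was at 0.79 TPM in *Fabp4*-/- and 0.56 TPM in WT, with a log2 TPM ratio of 0.28 (1.05 by normalised counts).

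Of 15 signals that call or expand neutrophils and their receptors, 10 reached 1 TPM, with 0 past 2-fold upwards and 1 downwards on the TPM scale, and 3 and 1 in normalised counts. Past 2-fold downwards were thus 10% of the 10 on either scale, against 14.2% and 7.34% of all genes tested. Upwards the shares of all genes tested were 2.18% on the TPM scale and 5.63% in normalised counts. The lower gene was *Tnf*, a cytokine of macrophages and T cells, at 0.40 TPM in *Fabp4*-/- and 1.78 TPM in WT. The 3 higher genes in normalised counts were *Il1a*, an alarmin cytokine, and the chemokine genes *Cxcl1* and *Cxcl2*. *Il1a* had the largest higher ratio by TPM, at 4.22 TPM in *Fabp4*-/- and 2.49 TPM in WT. *Cxcl1* was at 207 and 137 TPM, and *Cxcl2* at 1.84 and 1.55 TPM. The chemokine genes did not all go this way. Lower by TPM were *Cxcl3* (0.35 TPM in *Fabp4*-/- and 1.03 TPM in WT), *Cxcl5* (0.26 and 0.66 TPM) and the receptor gene *Cxcr4* (6.75 and 11.6 TPM). In normalised counts the intervals of *Cxcl3* (0.341 to 1.07) and *Cxcl5* (0.327 to 1.01) held 1. *Il17a*, like *Csf3*, was listed at 0 in both libraries. Of 9 myeloid transcription factors, 8 reached 1 TPM and 1 was past 2-fold downwards on the TPM scale. This is 12.5% of the 8, against 14.2% of all genes tested. In normalised counts 2 were past it upwards (*Cebpa* and *Cebpe*) and 0 downwards, against 5.63% and 7.34% of all genes tested. The lower one by TPM was *Irf8*, a factor of monocytes and dendritic cells, at 6.21 TPM in *Fabp4*-/- and 17.6 TPM in WT. *Cebpe* was at 3.14 TPM in *Fabp4*-/- and 2.12 TPM in WT, from 176 and 103 read pairs (log2 TPM ratio 0.47, and 1.13 by normalised counts). *Cebpa*, which hepatocytes also express, was at 155 and 108 TPM, and *Spi1*, the gene of PU.1, at 9.99 and 19.2 TPM.

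None of the 6 receptors and adaptors of calprotectin was past 2-fold on either scale. *Tlr4* was at 0.38 TPM in *Fabp4*-/- and 0.70 TPM in WT, and *Ager*, the gene of RAGE, at 0.74 and 1.41 TPM. Over the 5 that reached 1 TPM, their median log2 TPM ratio was −0.50, against −0.46 for all genes tested. Of 14 other S100 genes, 8 reached 1 TPM, with 1 past 2-fold downwards on both scales and *S100a1* upwards in normalised counts. Past it downwards were thus 12.5% of the 8, against 14.2% of all genes tested by TPM and 7.34% by normalised counts. Upwards in normalised counts were 5.63% of all genes tested. The lower gene was *S100a4*, which lies in the same cluster on chromosome 3 and marks fibroblasts and leukocytes, at 14.3 TPM in *Fabp4*-/- and 44.5 TPM in WT. *S100a1* was at 87.4 TPM in *Fabp4*-/- and 57 TPM in WT. Among 7 inhibitors of neutrophil proteases, *Serpinb1a*, an inhibitor inside leukocytes, was at 0.85 TPM in *Fabp4*-/- and 3.09 TPM in WT, whereas *Serpina1e*, a plasma inhibitor that hepatocytes secrete, was at 1395 and 548 TPM. The Serpina1 genes are near-identical copies that share reads, so the division between them is uncertain.

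**Figure D4:**
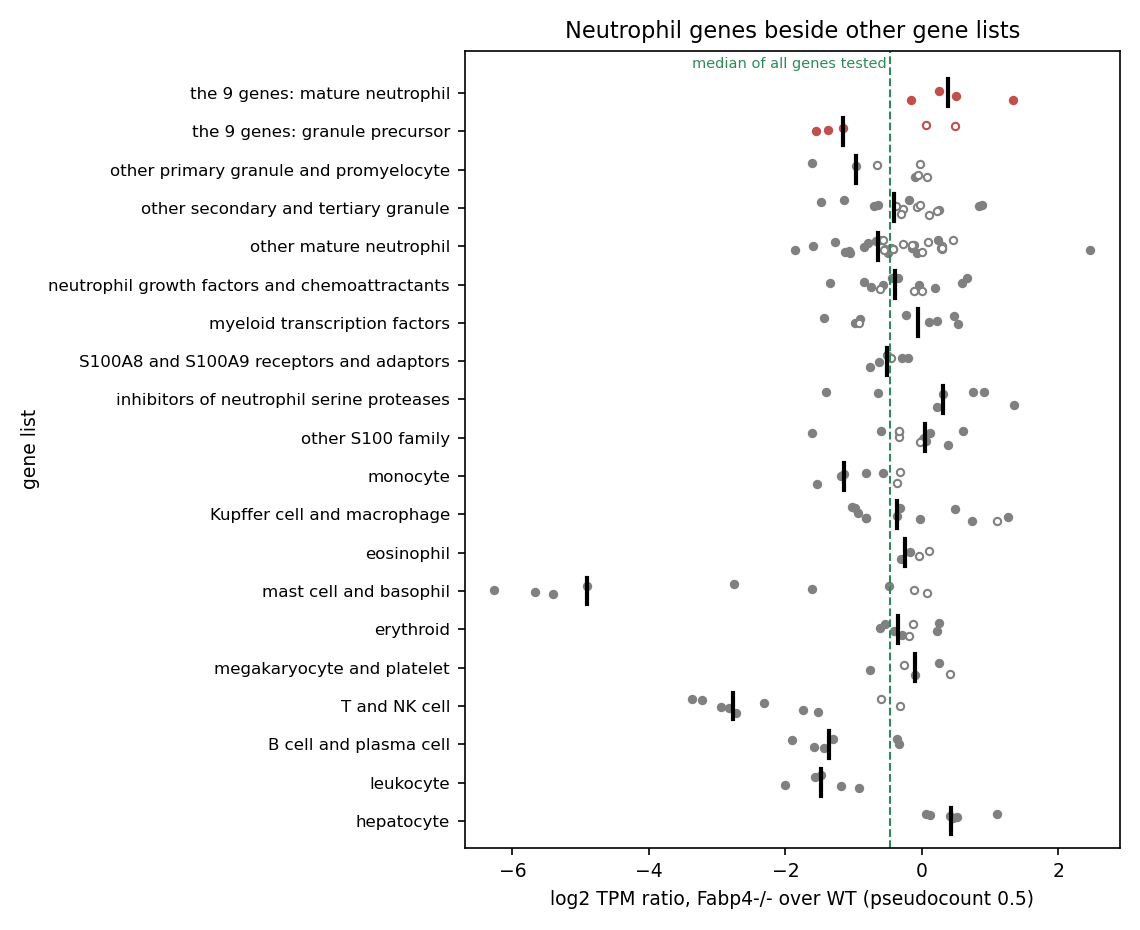
Log2 TPM ratio of *Fabp4*-/- over WT (pseudocount 0.5) for each gene with reads on 20 lists. Filled points are genes that reached 1 TPM and open points those that did not, black bars are medians (of all the genes for the 4 mature and 5 granule genes, of filled points elsewhere), and the dashed line is the median of all genes tested, −0.46. The bars of the 4 mature genes (0.38) and of hepatocyte markers (0.43) lie to the right of the line, and those of lymphocyte, leukocyte and mast cell markers to the left.

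Markers of other cells also differed between the 2 libraries. The 5 general leukocyte markers all lay below the median of all genes tested, with summed levels of 47.4 TPM in *Fabp4*-/- and 128 TPM in WT and a median log2 TPM ratio of −1.48 (−0.88 by normalised counts). Of all genes tested, 14.2% were past 2-fold downwards by TPM and 7.34% by normalised counts, and 2.18% and 5.63% upwards. Of 10 T and NK cell markers, 8 reached 1 TPM, and these 8 were all past 2-fold downwards on both scales. The 10 summed to 6.92 TPM in *Fabp4*-/- and 69.2 TPM in WT. Of 9 mast cell and basophil markers (sums 2.70 and 116 TPM), 7 reached 1 TPM, and 6 of the 7 were past it downwards on both scales. All 6 B and plasma cell markers (sums 203 and 277 TPM) reached 1 TPM. Of these, 4 were past it downwards on the TPM scale and 2 in normalised counts. *S100a8*, *S100a9*, *Csf3r* and *Retnlg* thus lay above the median of all genes tested in a library whose general leukocyte markers lay below it. Monocytes share some of these genes. Of 7 monocyte markers (sums 38.3 TPM in *Fabp4*-/- and 68.7 TPM in WT), 5 reached 1 TPM. Of the 5, 3 were past 2-fold downwards on the TPM scale and 1 in normalised counts. Of 12 Kupffer cell and macrophage markers (sums 283 and 461 TPM), 11 reached 1 TPM. Among the 11, *Marco* was past 2-fold upwards and *C1qa* downwards on the TPM scale, whereas in normalised counts 3 were past it upwards and 0 downwards. No marker of erythroid cells (8 listed, sums 2294 and 3149 TPM), eosinophils (6 listed, sums 22.9 and 26.3 TPM, *Epx* and *Ear6* at 0 in both) or platelets (5 listed, sums 8.90 and 9.57 TPM) was past 2-fold on the TPM scale. Of those that reached 1 TPM, only the platelet gene *Pf4* was past it in normalised counts, upwards (2.04-fold, interval 1.52 to 2.76). Hepatocyte markers lay above the median in 6 of 6 found, with sums of 133067 TPM in *Fabp4*-/- and 100216 TPM in WT. Their median log2 ratio of 0.43 for TPM and 0.998 for normalised counts was close to the 0.38 and 0.96 of the 4 mature neutrophil genes. The part of any of these cells in the levels of the 9 genes was not tested.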

How the data were processed

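PolyA RNA was sequenced by the authors from both ends (151 bp). Per the submitters' processing notes, mm10 was the build and RSEM 1.2.31 and STAR 2.5.2 were the tools, with no settings listed. The authors deposited TPM values, which sum to 1000000 per library, and normalised counts, a signal on a read scale in which 1 read pair is worth 1.13 in *Fabp4*-/- and 0.882 in WT. Of the deposited signal values above 0, 86.4% and 86.0% were whole read pairs to within 0.0001. Columns of the authors' own comparison (fold changes, a probability and an FDR) were not used. Read pairs were estimated by division by these values. Ratios used a pseudocount of 0.5 TPM or 1 normalised count. Intervals are exact binomial (Clopper-Pearson), or conditional odds ratios for ratios within a library. Amplified copies are not told apart in them.

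The 9 genes and 18 accompanying lists, written from textbook knowledge, were chosen with earlier results of these data known. Besides the 9, genes named are up to 4 per list with the largest log2 TPM ratio at 1 TPM or more, and *Ly6g*, *Cxcr2*, *Cebpe*, *Csf3*, *Prtn3*, *Ctsg*, *Lcn2* and *Tlr4*. *Cxcr1*, *Cxcl1*, *Cxcl2*, *Cxcl5*, *Mmp8*, *Mmp9*, *Il17a*, *Epx* and *Ear6* were chosen after their values were seen. For 1 listed symbol with more than 1 identifier, the one with more reads was used. 1 hepatocyte symbol (*Tf*) was not matched. Whether counting used strand is not stated in those notes. Alternatives were other pseudocounts, minima, scalings and thresholds. Calculations used scipy 1.17.1, pandas 2.3.3, numpy 2.4.6 and matplotlib 3.10.9 under Python 3.11.15, and the interval was tested on simulated data.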

Additional observations from a re-analysis of the deposited data

How the results depend on the processing

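No paired analysis was possible because the comparison is of 1 library with 1 other. *Camp*, *Ngp* and *Ltf* were lower and *Retnlg*, *S100a8* and *S100a9* higher in *Fabp4*-/- under each alternative that gave them a value. *Csf3r* was negative in 7 and positive in 3 of 10 alternatives (−0.17 to 0.33). Of the 9 genes, those at least 2-fold higher, 1 by TPM, became 2 with median centring and by normalised counts (*S100a9* and *Retnlg*), and 0 with a minimum of 5 TPM, which leaves 3 of the 9, and at 4-fold. Those at least 2-fold lower, 3 by TPM, became 2 with median centring (*Camp* and *Ltf*, with *Ngp* at −0.97), 1 with a pseudocount of 1 TPM (*Ltf*) and 0 with a minimum of 5 TPM and at 4-fold. The median of the mature genes, 0.38, became 0.88 with median centring, 0.76 with upper quartile scaling and 0.96 by normalised counts. That of the granule genes ranged from −1.87 to −0.80. Of all genes tested, 296 were higher and 1928 lower (86.7% lower). These became 637 and 808 (55.9% lower) with median centring, 524 and 959 (64.7%) with upper quartile scaling, 763 and 995 (56.6%) by normalised counts, 568 and 5318 at 1.5-fold, and 90 and 251 at 4-fold. With a minimum of 5 TPM, 1083 were lower. Other thresholds and minima change which genes can be counted, and otherwise the cause was not tested. Read pairs scaled to the library total and a minimum of 20 read pairs, both chosen after seeing the data, changed neither count of the 9 genes. In *Fabp4*-/- all 5 granule genes, *Camp*, *Ngp* and *Ltf* included, rest on 17 read pairs or fewer.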
